A study of Homo sapiens with 6 samples.

Results

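The EGFR family set comprised 10 genes of the receptor family, its ligands and their closest partners, taken by gene symbol from the deposited tables: the ligands AREG, EREG, HBEGF and TGFA, the receptors EGFR, ERBB2 and ERBB3, the sheddase ADAM17, the feedback inhibitor ERRFI1 and the adaptor GRB2. All 10 symbols were listed, among 12180 genes in the gene table, together with 33 of the 33090 transcripts in the transcript table. The rule uses symbols and no measured value, but it was written with earlier results of these data known. RNA of TE-1, an established human esophageal squamous cell carcinoma (ESCC) line, was sequenced from 3 control libraries and 3 libraries of cells overexpressing FGL1. FGL1 encodes fibrinogen-like protein 1, a secreted protein. The control genotype reads WT in the sample labels, whereas the methods describe controls that carry random nonsense sequences (NC), and NC is the name used here. The methods describe lentiviral infection and puromycin selection for the lines with modified FGL1 and do not say whether the NC cells were selected too, and the promoter of the transgene and the number of clones are not stated. The methods speak of independent experiments in general and do not tie this to the RNA-seq libraries, so whether the 3 libraries of a group came from separate cultures is not stated and the p-values measure only the spread between these libraries, which may be technical.

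The receptors of this family are tyrosine kinases of the cell surface that pair with each other when a ligand binds. ERBB2 binds no known ligand itself and ERBB3 has little kinase activity, so both act mainly in pairs. AREG, EREG, HBEGF and TGFA are made as membrane-anchored precursors, and ADAM17 cuts them free. GRB2 docks on the phosphorylated receptor and brings the RAS activator SOS to it, and ERRFI1 (also called MIG6) binds and blocks the kinase. EGFR is commonly expressed at a high level in squamous epithelium and its carcinomas.

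The values are FPKM, fragments scaled to transcript length and to the number of mapped fragments, so levels of different genes can be set side by side. This scaling does not adjust for base composition, so such comparisons between genes are approximate. Differences are log2 fold changes, FGL1-OE minus NC, of log2(FPKM + 1), a scale that understates the change of low genes. They were fitted with limma over the 12017 genes whose mean across the 6 libraries reached 0.5 FPKM, as it did for all 10 members, and adjusted p-values (Benjamini-Hochberg) run over all of these genes. The exact two-sided permutation test of 3 libraries against 3 cannot give a p below 0.1. FGL1 itself measured 0.0202, 0 and 0.106 FPKM in NC libraries 1 to 3, against 33.5, 39.3 and 39.9 FPKM in FGL1-OE libraries 1 to 3, in the direction of the labels. The tables hold no read counts, so the depth of the libraries is unknown. Listed FPKM summed to between 210904 and 226307 per library. NC libraries were less alike than FGL1-OE libraries, with correlations of log2(FPKM + 1) across genes of 0.885 to 0.965 against 0.981 to 0.986. Of 10 markers of squamous epithelium, 7 were listed (KRT14, SOX2 and PKP1 were not), with summed levels of 361 to 688 FPKM in NC and 576 to 666 FPKM in FGL1-OE. Most of this sum came from SFN, with a mean of 328 FPKM, and the keratin KRT6A, with 163 FPKM. CDH1 had a mean of 52.4 FPKM, KRT17 11.2, DSG3 8.67 and KRT5 5.25 FPKM, and the lineage factor TP63 was near 0 at 0.475 FPKM. Of 6 fibroblast markers 3 were listed, with sums of 2.29 to 8.11 FPKM in NC and 3.24 to 8.27 FPKM in FGL1-OE, and of 5 leukocyte markers CD14 alone was listed, under 1 FPKM in each library. None of 3 endothelial markers was listed. In bulk RNA, fewer cells expressing a gene and less RNA per cell cannot be told apart.

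HBEGF and TGFA were the 2 ligands whose FGL1-OE libraries lay above every NC library, and AREG, the most abundant ligand, and EREG were not separated between the groups. No receptor was separated either, nor were ADAM17, ERRFI1 and GRB2. None of the 10 members had an adjusted p-value under 0.05 from limma with Benjamini-Hochberg adjustment, against 0.00832% of all genes tested, which is FGL1 alone. At an unadjusted p under 0.05, 1 of the 10 passed, HBEGF, against 2.01% of all genes in either direction and 1.21% in the higher direction. An ordinary linear model also gave 0 members after adjustment and 1 before it, and there the gene was TGFA. FGL1-OE lay above NC in all libraries for 2 of 10 members, against 4.09% of all genes, and the groups were separated in either direction for 7.15% of all genes. The log2 fold change was above 0 for 7 members and below 0 for 3. Its median was 0.10 over the members and 0.016 over all genes tested.

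**Figure D1:**
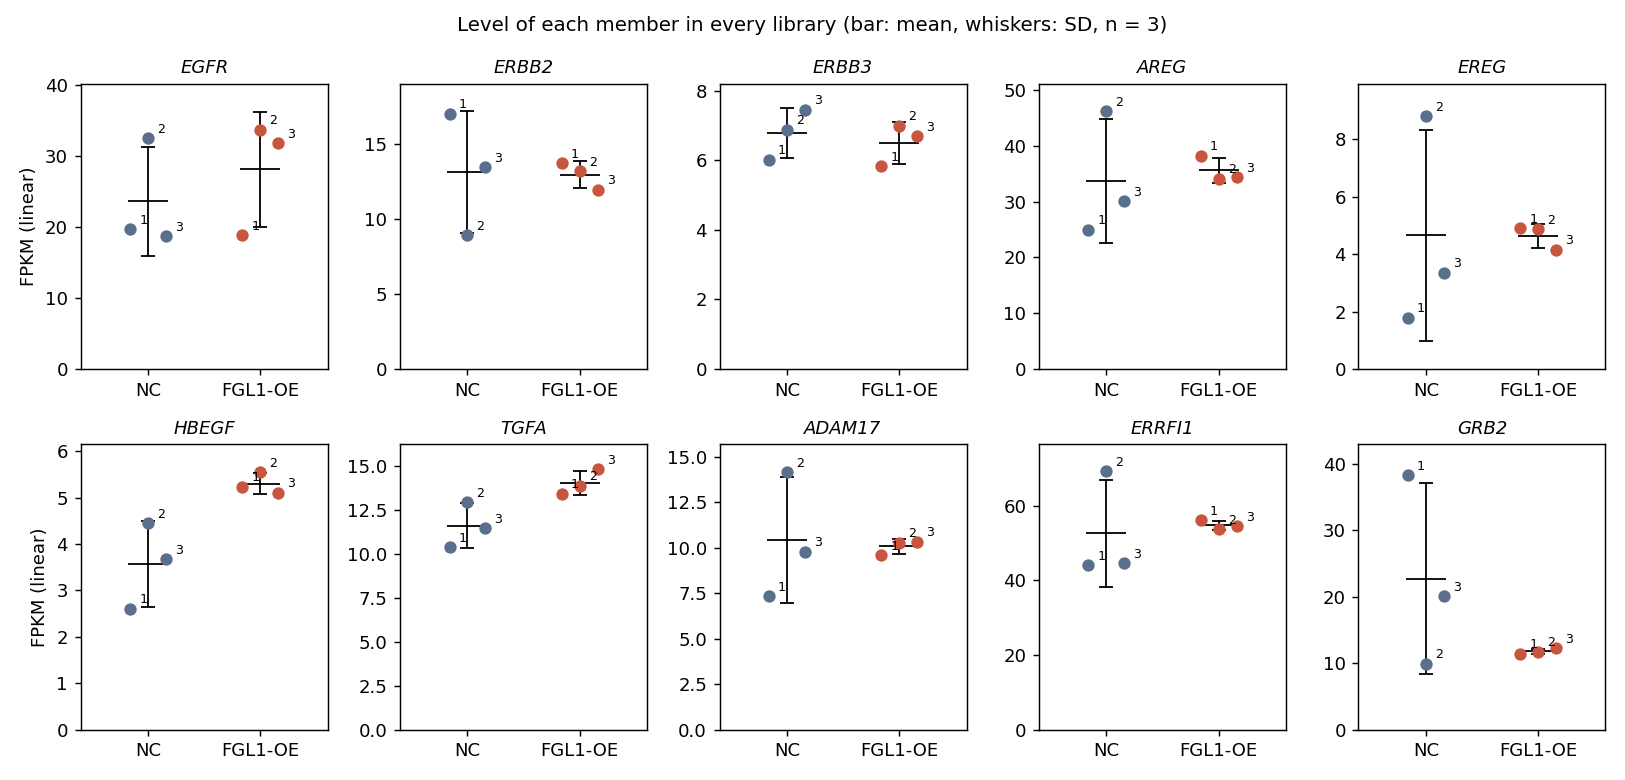
Level of each of the 10 members in FPKM on a linear axis from 0, with 1 point per library numbered by replicate, the mean as a bar and the SD as whiskers (n = 3 per group). The FGL1-OE points of HBEGF and TGFA lie above all NC points, and in the other 8 panels the groups overlap.

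HBEGF, heparin-binding EGF-like growth factor, lies at chr5:139712428-139726216 on GRCh37. It measured 2.61, 4.44 and 3.67 FPKM in NC libraries 1 to 3, against 5.24, 5.54 and 5.10 FPKM in FGL1-OE libraries 1 to 3. All FGL1-OE libraries were close together and above the highest control, NC 2. The group means were 3.57 ± 0.922 FPKM for NC and 5.30 ± 0.226 FPKM for FGL1-OE (SD, n = 3 each), with a ratio of 1.48. The log2 fold change was 0.48 (standard error 0.18, 95% interval 0.053 to 0.91), with an unadjusted p of 0.0322 and an adjusted p of 1.00 from limma (p = 0.1 by exact two-sided permutation, which is the floor for 3 against 3). The unadjusted p was 0.0658 without NC 1, 0.0656 without NC 3, between 0.0737 and 0.0968 when an FGL1-OE library was left out, and 0.0523 in an ordinary linear model. Its single listed transcript, ENST00000230990, had a log2 fold change of 0.48 as well, with a standard error of 0.26 (adjusted p = 1.00 from limma).

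TGFA, transforming growth factor alpha, lies at chr2:70674412-70781325 on GRCh37. It measured 10.4, 12.9 and 11.5 FPKM in NC libraries 1 to 3, against 13.4, 13.9 and 14.8 FPKM in FGL1-OE libraries 1 to 3. The gap between the groups was narrow, with NC 2 just under FGL1-OE 1. The group means were 11.6 ± 1.28 FPKM for NC and 14.0 ± 0.705 FPKM for FGL1-OE (SD, n = 3 each), with a ratio of 1.21. The log2 fold change was 0.26 (standard error 0.15, 95% interval -0.085 to 0.60), with an unadjusted p of 0.12 and an adjusted p of 1.00 from limma (p = 0.1, exact two-sided permutation test). Of 3 listed transcripts, ENST00000295400 carried most of the signal, with 10.9, 14.5 and 12.7 FPKM in NC against 15.0, 15.6 and 17.0 FPKM in FGL1-OE, again without overlap.

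AREG, amphiregulin, and EREG, epiregulin, are neighbours on chromosome 4, at chr4:75310851-75320726 and chr4:75230860-75254468 on GRCh37. AREG measured 24.9, 46.2 and 30.0 FPKM in NC libraries 1 to 3, against 38.2, 34.1 and 34.4 FPKM in FGL1-OE libraries 1 to 3. EREG measured 1.79, 8.81 and 3.35 FPKM in NC, against 4.90, 4.88 and 4.16 FPKM in FGL1-OE. For both, NC 2 was the highest of the 6 libraries and NC 1 the lowest, and all FGL1-OE values lay between them. The means were 33.7 ± 11.1 and 35.6 ± 2.30 FPKM (SD, n = 3) for AREG in NC and FGL1-OE, and 4.65 ± 3.69 and 4.64 ± 0.423 FPKM (SD, n = 3) for EREG. The log2 fold changes were 0.12 (standard error 0.23, 95% interval -0.42 to 0.66) for AREG and 0.19 (standard error 0.41, 95% interval -0.76 to 1.15) for EREG, both with an adjusted p of 1.00 from limma. Without NC 1 they turned to -0.066 and -0.21.

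The make-up of the ligand pool was compared by the share of each gene in the summed FPKM of the 4 ligands. The sum was 39.7, 72.3 and 48.5 FPKM in NC 1, 2 and 3 and 61.8, 58.4 and 58.4 FPKM in FGL1-OE 1, 2 and 3 (p = 0.7, exact two-sided permutation test). AREG made up 58.4% to 63.8% of the pool in each library, and TGFA 17.8% to 26.1%. HBEGF contributed 6.57%, 6.14% and 7.58% in NC and 8.48%, 9.49% and 8.73% in FGL1-OE. Its share was therefore higher in every FGL1-OE library (8.90 ± 0.526% against 6.76 ± 0.739%, SD, n = 3, p = 0.1, exact two-sided permutation test). EREG, at 4.51% to 12.2% in NC and 7.11% to 8.35% in FGL1-OE, overlapped. The shares of AREG and TGFA overlapped too, and the p of 0.1 for HBEGF is the floor for 3 against 3. These shares are ratios within a library, so a difference in them would not tell which ligand changed.

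The start regions of these 4 ligand genes are shown because HBEGF and TGFA were separated between the groups and AREG and EREG were not. Each window holds 250 bases before the annotated start and 50 after it, from RefSeq on GRCh38.p14, printed along the gene's own strand. Capitals mark matches on either strand to the GC box GGGCGG, the TATA box TATAAA and the cAMP response element TGACGTCA.
HBEGF, chr5:140346554-140346853, minus strand: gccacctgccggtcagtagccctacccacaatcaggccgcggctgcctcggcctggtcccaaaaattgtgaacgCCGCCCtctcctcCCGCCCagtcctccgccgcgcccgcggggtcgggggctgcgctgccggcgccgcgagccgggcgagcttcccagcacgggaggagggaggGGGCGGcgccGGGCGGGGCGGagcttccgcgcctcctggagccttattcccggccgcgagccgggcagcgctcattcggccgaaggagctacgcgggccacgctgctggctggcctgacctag
TGFA, chr2:70553777-70554076, minus strand: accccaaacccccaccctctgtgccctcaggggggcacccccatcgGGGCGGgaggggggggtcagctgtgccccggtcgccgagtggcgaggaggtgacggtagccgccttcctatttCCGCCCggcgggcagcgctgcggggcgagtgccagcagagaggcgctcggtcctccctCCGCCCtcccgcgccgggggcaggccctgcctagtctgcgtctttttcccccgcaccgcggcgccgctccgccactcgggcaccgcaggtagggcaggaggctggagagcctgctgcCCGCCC
AREG, chr4:74444886-74445185, plus strand: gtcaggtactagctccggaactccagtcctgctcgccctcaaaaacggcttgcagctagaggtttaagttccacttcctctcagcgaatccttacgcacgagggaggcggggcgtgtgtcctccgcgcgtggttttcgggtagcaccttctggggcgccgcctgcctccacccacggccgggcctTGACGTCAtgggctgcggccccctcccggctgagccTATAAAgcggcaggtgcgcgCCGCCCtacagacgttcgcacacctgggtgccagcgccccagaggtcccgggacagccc
EREG, chr4:74364895-74365194, plus strand: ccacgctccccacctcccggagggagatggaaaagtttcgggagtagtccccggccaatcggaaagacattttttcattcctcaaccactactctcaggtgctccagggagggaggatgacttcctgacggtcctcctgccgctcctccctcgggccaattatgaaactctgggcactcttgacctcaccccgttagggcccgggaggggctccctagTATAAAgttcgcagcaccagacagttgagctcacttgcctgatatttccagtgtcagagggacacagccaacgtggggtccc

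The HBEGF window held 5 GC boxes, of which 2 overlap by a base, and the TGFA window held 4. TGFA had 2 windows, and the one shown holds the start of ENST00000295400. The AREG window held 1 GC box at -9, a TATA box at -29 and a cAMP response element at -65, counted in bases from the start. The EREG window held a TATA box at -32 and no GC box. Over 34943 windows of the same length, 44.9% held at least 1 GC box, 11.6% the TATA box and 1.84% the cAMP response element. How many windows hold 4 or 5 GC boxes, and their usual GC content, was not computed. The AP-1 letters TGANTCA (7.72% of windows) and the EGR letters GCGNGGGCG (9.41%) were searched on both strands as well and were found in none of the 4 windows. The GC content was 75.0% for HBEGF, 75.3% for TGFA, 66.3% for AREG and 57.7% for EREG. These are matches of letters and not measured binding sites.

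EGFR, the receptor for all 4 ligands, lies at chr7:55086714-55279321 on GRCh37. Among the 12180 listed genes, its level stood at percentile 87.2. EGFR measured 19.7, 32.5 and 18.8 FPKM in NC libraries 1 to 3, against 18.8, 33.7 and 31.9 FPKM in FGL1-OE libraries 1 to 3. Each group held both low and high libraries, with NC 2, FGL1-OE 2 and FGL1-OE 3 high and the other 3 low. The means were 23.7 ± 7.70 FPKM and 28.1 ± 8.11 FPKM (SD, n = 3). This gave a log2 fold change of 0.24 (standard error 0.29, 95% interval -0.43 to 0.91, adjusted p = 1.00 from limma). It ranged from 0.093 without FGL1-OE 2 to 0.50 without FGL1-OE 1 when 1 library was left out, and was 0.48 without NC 2, 0.14 without NC 1, 0.10 without NC 3 and 0.13 without FGL1-OE 3. The genes whose pattern over the 6 libraries was nearest to that of EGFR, by the root mean square difference of centred log2(FPKM + 1) among 6550 genes of at least 5 FPKM, were CNIH4 (0.0918), NR3C1 (0.113) and WBP2 (0.113). For AREG they were LPCAT3 (0.0276), VAPA (0.0424) and ATP23 (0.0470).

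ERBB2 (HER2), at chr17:37844167-37886679 on GRCh37, measured 17.0, 8.91 and 13.5 FPKM in NC libraries 1 to 3, against 13.7, 13.2 and 12.0 FPKM in FGL1-OE libraries 1 to 3. NC 2 was the lowest library and NC 1 the highest, the reverse of the order seen for AREG and EREG. The log2 fold change was 0.021 (standard error 0.23, 95% interval -0.51 to 0.56, adjusted p = 1.00 from limma), and it was -0.66 when the listed ERBB2 transcripts were summed instead. ERBB3 (HER3), at chr12:56473641-56497289, measured 6.01, 6.88 and 7.46 FPKM in NC, against 5.83, 6.99 and 6.70 FPKM in FGL1-OE. By its gene value it was the steadiest receptor, with a log2 fold change of -0.052 (standard error 0.15, 95% interval -0.41 to 0.30, adjusted p = 1.00 from limma). The log2 fold change was -0.385 when the listed ERBB3 transcripts were summed instead. ENST00000267101, the most abundant of them, measured 7.52, 6.54 and 8.45 FPKM in NC, against 6.78, 1.14 and 7.06 FPKM in FGL1-OE. As shares of the 3 receptors' summed FPKM, EGFR made up 46.1% to 67.3% in NC and 49.1% to 63.1% in FGL1-OE, and ERBB3 made up 13.0% to 18.8% in any library. ERBB4, the remaining receptor of the family, was not listed.

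ADAM17, the main sheddase of these ligands, lies at chr2:9628615-9695921 on GRCh37. It measured 7.34, 14.2 and 9.80 FPKM in NC libraries 1 to 3, against 9.61, 10.3 and 10.4 FPKM in FGL1-OE libraries 1 to 3. All FGL1-OE values lay within the NC range, with a log2 fold change of -0.0024 (standard error 0.23, 95% interval -0.53 to 0.52, adjusted p = 1.00 from limma). ERRFI1, at chr1:8064464-8086368, was the most abundant member, at percentile 94.7 of the listed genes. It measured 44.0, 69.2 and 44.6 FPKM in NC, against 56.1, 53.6 and 54.4 FPKM in FGL1-OE, again within the NC range. The FGL1-OE values lay inside the NC range for 6 of the 10 members and for 57% of all genes tested. Its log2 fold change was 0.088 (standard error 0.20, 95% interval -0.38 to 0.56, adjusted p = 1.00 from limma).

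GRB2, at chr17:73314157-73401790 on GRCh37, had the lowest log2 fold change of the 10 members and a wide spread among controls. It measured 38.3, 9.93 and 20.1 FPKM in NC libraries 1 to 3, against 11.4, 11.8 and 12.2 FPKM in FGL1-OE libraries 1 to 3. NC 1 and NC 3 were above every FGL1-OE library and NC 2 was below them, while the FGL1-OE libraries agreed closely. The means were 22.8 ± 14.4 FPKM and 11.8 ± 0.399 FPKM (SD, n = 3). This gave a log2 fold change of -0.70 (standard error 0.41, 95% interval -1.66 to 0.25), with an unadjusted p of 0.126 and an adjusted p of 1.00 from limma (p = 0.4, exact two-sided permutation test). It was -1.17 without NC 2 and -0.25 without NC 1.

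In order of mean level over the 6 libraries, the members were ERRFI1, AREG, EGFR, GRB2, ERBB2, TGFA, ADAM17, ERBB3, EREG and HBEGF. ERRFI1 was above AREG, AREG above EGFR and ADAM17 above ERBB3 in 6 of 6 libraries. EGFR was above GRB2 and GRB2 above ERBB2 in 4 of 6, ERBB2 above TGFA in 3 of 6, TGFA above ADAM17 and ERBB3 above EREG in 5 of 6, and EREG above HBEGF in only 1 of 6. The ranges over libraries overlapped for every neighbouring pair, so only the 3 steps seen in 6 of 6 libraries held within each library, and the order of the other pairs changed between libraries.

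**Figure D2:**
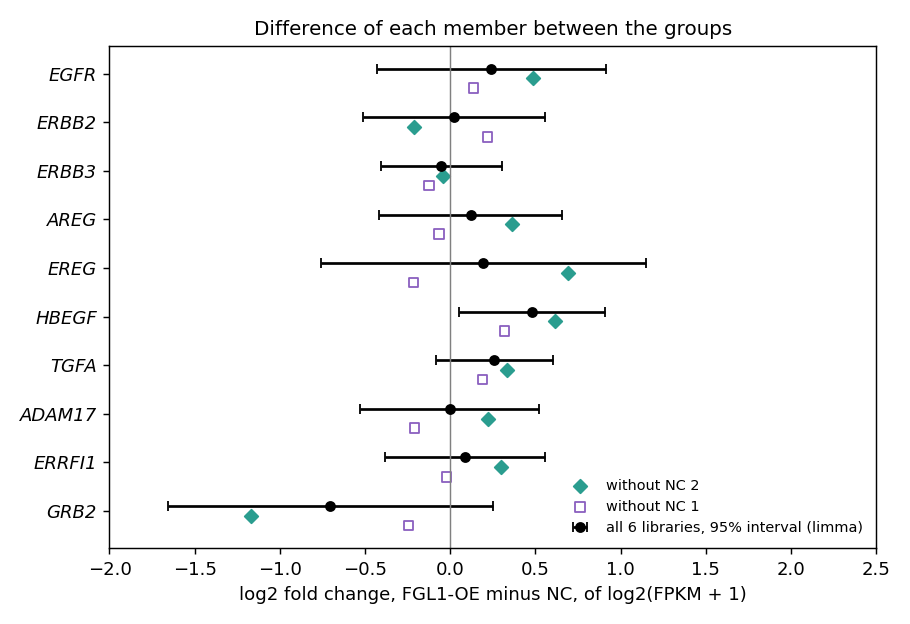
Log2 fold change of each member (FGL1-OE minus NC, of log2(FPKM + 1)) from limma with all 6 libraries, with its 95% interval, and as points after leaving out NC 2 or NC 1. The interval of HBEGF alone lies above 0, and AREG, EREG, ADAM17, ERBB2 and ERRFI1 change sign between the fits without NC 2 and without NC 1.

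Leaving out NC 2 changed most of these comparisons. Without it, 6 of the 10 members had an unadjusted p under 0.05, against 21.8% of all genes in the same fit, and 0 had an adjusted p under 0.05. AREG (0.36), EREG (0.69), HBEGF (0.62), TGFA (0.33) and ERRFI1 (0.30) then had higher log2 values in FGL1-OE, and GRB2 (-1.17) lower ones. The median over the members was 0.32 in that fit, and over all genes it was 0.036. The smallest adjusted p of any member in any setting tried was 0.194. NC 2 and NC 1 differed in parallel with base composition: across 11786 genes, Spearman's rho between their log2 difference and GC content was -0.788, a description over genes of the same 2 libraries. NC 3 lay between NC 1 and NC 2 for 8 of the 10 members and for 70.0% of all genes tested. EREG, at 36.1% GC, was 1.81 higher in NC 2 than in NC 1 on the log2 scale, and ERBB2, at 57.2% GC, was lower by 0.86 (log2 difference -0.865). GRB2, at 51.8% GC, differed by -1.85, whereas the median of the 1443 genes in the bin centred on 50% GC was 0.11. With the trend of GC content and length removed, the log2 fold change was 0.45 for HBEGF (unadjusted p = 0.0162 and adjusted p = 0.749 from limma), 0.21 for TGFA, 0.037 for AREG, 0.11 for EREG and -0.72 for GRB2. The part of base composition in the differences between groups was otherwise not tested.

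**Figure D3:**
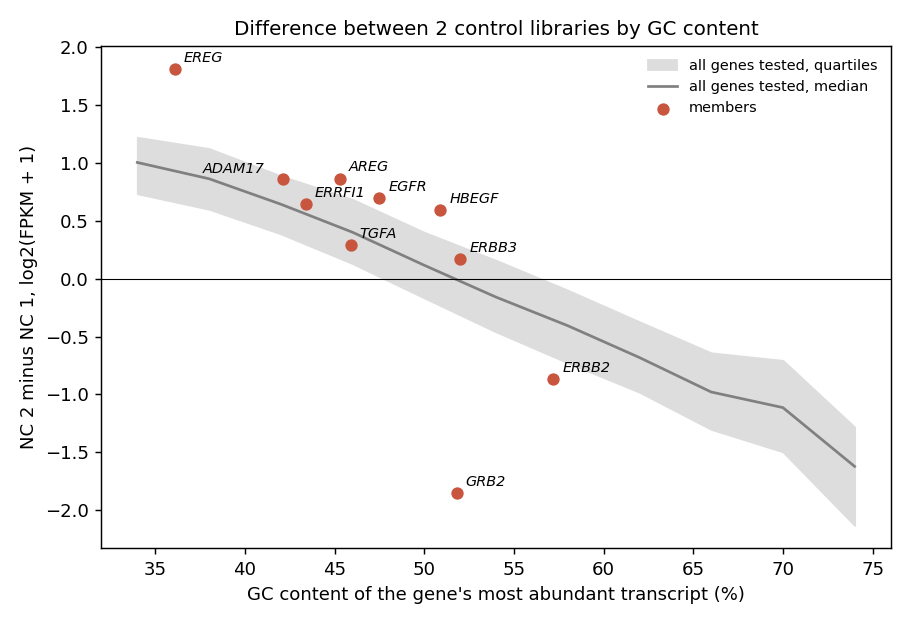
Difference between control libraries NC 2 and NC 1 on the log2(FPKM + 1) scale against the GC content of a gene's most abundant transcript in percent, with the median and quartiles of all genes tested in bins of GC content and the 10 members as points. The median falls from 1.00 at 34% GC to -1.62 at 74% GC, EREG lies far above the band and GRB2 far below it.

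At the transcript level, 31 of the 33 member transcripts reached a mean of 0.5 FPKM and were tested among 30330 transcripts. Of these, 1 had an unadjusted p under 0.05, against 3.53% of all transcripts, and 0 had an adjusted p under 0.05, against 0.0165%. The ordinary linear model gave 0 on both. The transcript was ENST00000578199 of ERBB2, listed at 0 in each NC library and with 1.83, 0.109 and 1.20 FPKM in FGL1-OE libraries 1 to 3. Its unadjusted p was 0.0496 and its adjusted p 1.00 from limma, and FGL1-OE 2 was close to 0. Of the 31-base words of ENST00000578199, only 0.0801% are absent from the other annotated ERBB2 transcripts. Its level is therefore an estimate that depends on how reads were divided among ERBB2 transcripts. This share was counted within each gene, and words shared with other genes were not searched. It differed widely between member transcripts, with 62.1% for ENST00000295400 of TGFA and 56.0% for ENST00000377482 of ERRFI1.

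EGFR, ERBB2 and GRB2 had listed protein-coding transcripts that skip a coding exon held by the main form, and each of these exons is a whole number of codons. These cases were chosen after their values were seen, and the member transcripts were not searched for further skipped exons. Exons were taken from GENCODE 29 on GRCh38, in which all 33 transcripts were found. Capitals mark the exon, with 20 transcript bases on each side in lower case, and the second line of each pair is the junction without it.
EGFR with exon 4, chr7:55146606-55146740, plus strand: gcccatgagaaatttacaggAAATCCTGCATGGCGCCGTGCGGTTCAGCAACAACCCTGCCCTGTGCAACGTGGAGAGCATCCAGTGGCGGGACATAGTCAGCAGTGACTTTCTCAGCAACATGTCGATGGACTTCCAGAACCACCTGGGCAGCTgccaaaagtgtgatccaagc
EGFR without exon 4: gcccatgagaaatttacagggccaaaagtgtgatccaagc
ERBB2 with exon 16, chr17:39719787-39719834, plus strand: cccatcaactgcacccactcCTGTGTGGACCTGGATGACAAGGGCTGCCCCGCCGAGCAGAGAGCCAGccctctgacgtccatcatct
ERBB2 without exon 16: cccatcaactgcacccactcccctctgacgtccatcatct
GRB2 with exon 4, chr17:75325898-75326020, minus strand: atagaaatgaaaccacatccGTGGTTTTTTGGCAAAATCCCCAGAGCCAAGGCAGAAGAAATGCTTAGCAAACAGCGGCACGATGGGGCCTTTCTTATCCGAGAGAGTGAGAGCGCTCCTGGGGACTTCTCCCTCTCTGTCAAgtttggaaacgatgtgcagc
GRB2 without exon 4: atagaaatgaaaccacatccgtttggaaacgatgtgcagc

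The EGFR exon has 135 bases and codes for 45 amino acids of the extracellular region. It is missing from ENST00000454757 and ENST00000455089. Of their 31-base words, 0% and 12.1% occur in no other annotated EGFR transcript. The junction without the exon occurs in 2 of 11 annotated EGFR transcripts. Transcripts without it took 1.19%, 16.1% and 35.6% of the summed EGFR transcript FPKM in NC 1, 2 and 3 and 39.9%, 0.212% and 22.6% in FGL1-OE 1, 2 and 3. Both groups held a library near 0 and a library far above it, and they overlapped throughout (17.6 ± 17.3% against 20.9 ± 19.9%, SD, n = 3, p = 0.8, exact two-sided permutation test). Which transcript carried it also changed, since ENST00000454757 was at 15.1 FPKM in NC 3 and 16.5 FPKM in FGL1-OE 1 and under 0.1 FPKM elsewhere, and ENST00000455089 was at 8.59 FPKM in NC 2 and 13.0 FPKM in FGL1-OE 3. ENST00000275493, the full-length receptor and the most abundant EGFR transcript, measured 24.2, 36.7 and 12.6 FPKM in NC, against 12.7, 42.4 and 33.5 FPKM in FGL1-OE.

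The ERBB2 exon has 48 bases and codes for 16 amino acids of the extracellular stretch near the membrane. It is missing from ENST00000580074, a 754-base transcript annotated as incomplete. Its junction occurs in 1 of 22 annotated ERBB2 transcripts, and 4.01% of its 31-base words occur in no other annotated ERBB2 transcript. ENST00000580074 was nevertheless the most abundant listed ERBB2 transcript. It measured 28.4, 6.61 and 21.7 FPKM in NC libraries 1 to 3, against 13.9, 6.73 and 14.9 FPKM in FGL1-OE libraries 1 to 3. In NC 1, NC 3, FGL1-OE 1 and FGL1-OE 3 it exceeded the FPKM of the whole gene (17.0, 13.5, 13.7 and 12.0). The transcript and gene values of ERBB2 therefore disagree, but such an excess is not particular to ERBB2. The single listed transcripts of HBEGF, EREG and ADAM17 were above their gene values in each library. In NC 1 they measured 3.16 against 2.61 FPKM, 2.14 against 1.79 FPKM and 9.23 against 7.34 FPKM. Among transcripts that span the exon, ENST00000580074 took 71.7%, 34.2% and 72.6% in NC and 72.7%, 65.8% and 62.9% in FGL1-OE. These are shares of estimated FPKM, in part of a short incomplete transcript, and not a measured fraction of ERBB2 RNA without the exon. NC 2 was the only library under 50% (59.5 ± 21.9% against 67.1 ± 5.06%, SD, n = 3, p = 0.8, exact two-sided permutation test).

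The GRB2 exon has 123 bases and codes for 41 amino acids of the SH2 domain, the part that binds phosphorylated receptors. It is missing from ENST00000316615, and the junction without it occurs in 2 of 12 annotated GRB2 transcripts. Of the 31-base words of ENST00000316615, 0.317% occur in no other annotated GRB2 transcript. The share of ENST00000316615 was 2.15%, 5.07% and 2.94% in NC 1, 2 and 3 and 24.5%, 6.08% and 5.15% in FGL1-OE 1, 2 and 3. The groups were separated, but FGL1-OE 3 lay just above NC 2 and FGL1-OE 1 stood far above the rest (3.39 ± 1.51% against 11.9 ± 10.9%, SD, n = 3, p = 0.1, exact two-sided permutation test). ENST00000316615 itself measured 1.20, 0.828 and 0.905 FPKM in NC, against 4.43, 1.12 and 1.04 FPKM in FGL1-OE, with overlapping groups. ENST00000316804, the most abundant GRB2 transcript, measured 53.4, 11.7 and 26.6 FPKM in NC, against 6.93, 14.2 and 14.8 FPKM in FGL1-OE.

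**Figure D4:**
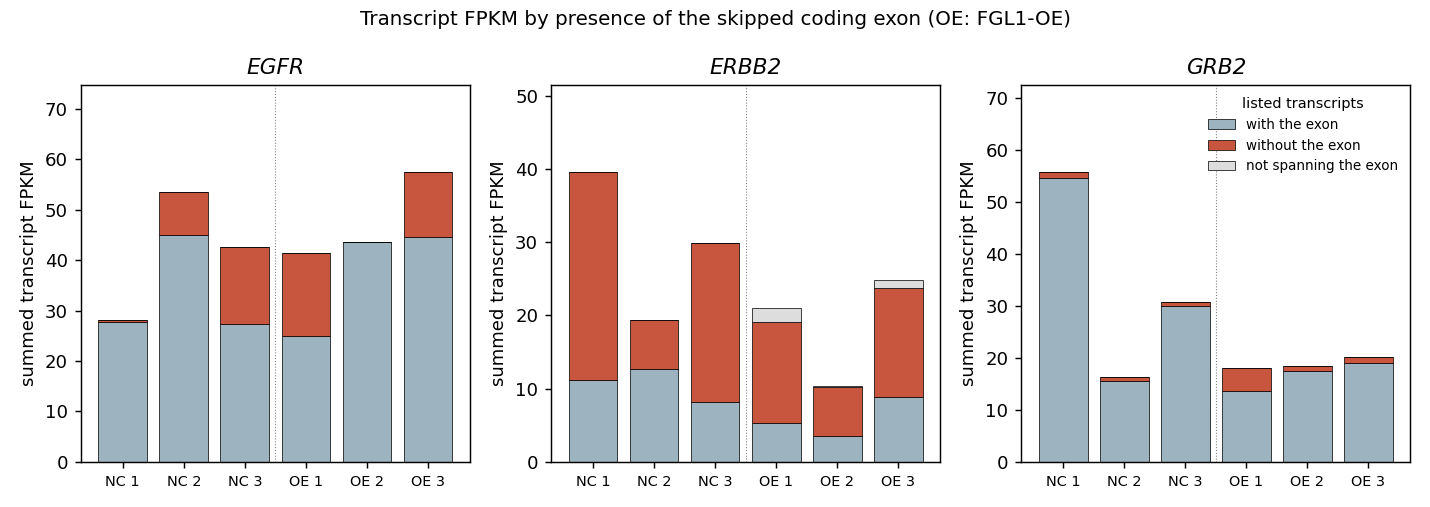
Summed FPKM of the listed EGFR, ERBB2 and GRB2 transcripts in each library, stacked by whether they hold the coding exon, lack it or do not span it. EGFR transcripts without the exon appear in libraries of both groups, the ERBB2 transcript without it takes most of the bar except in NC 2, and the GRB2 transcript without it stays between 0.828 and 4.43 FPKM.

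For the other genes of the pathway, 6 lists of 75 genes were examined, of which 69 were listed and tested. At an unadjusted p under 0.05, 3 of the 69 were higher in FGL1-OE, against 1.21% of all genes, and 0 were lower, where 2.01% of all genes passed in either direction. After adjustment 0 had an adjusted p under 0.05 (limma with Benjamini-Hochberg adjustment). Among the remaining receptors and ligands 5 of 8 were listed, with a median log2 fold change of 0.033. The largest was the ligand EPGN, epigen, a neighbour of AREG and EREG, with 2.40, 10.5 and 5.48 FPKM in NC against 6.92, 8.49 and 8.78 FPKM in FGL1-OE, with overlapping groups (log2 fold change 0.51, standard error 0.40). Among 9 listed genes of shedding and ligand trafficking the median was -0.039 and none passed. The largest change among those of at least 5 FPKM was that of TIMP3, an inhibitor of ADAM17, which measured 9.71, 8.22 and 8.18 FPKM in NC, against 7.16, 8.08 and 7.37 FPKM in FGL1-OE, below every NC library (log2 fold change -0.18, standard error 0.15, p = 0.1, exact two-sided permutation test).

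Of the 16 genes of adaptors and the RAS-ERK relay, none passed and the median was 0.026, with the largest value among genes of at least 5 FPKM at 0.19, for the GTPase NRAS. Of 9 listed genes of the PI3K and STAT3 branch, 1 passed. It was PDPK1, the kinase that activates AKT, with 4.31, 5.54 and 4.07 FPKM in NC against 6.13, 5.86 and 6.87 FPKM in FGL1-OE (log2 fold change 0.38, standard error 0.16, unadjusted p = 0.0496 and adjusted p = 1.00 from limma). Of 15 listed negative regulators, none passed and the median was 0.063. The phosphatase PTPN12 had the largest value, 0.42, with controls at 4.39 to 15.7 FPKM.

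The list of 15 transcripts that ERK signalling is known to raise had the highest median, 0.18. All 15 log2 fold changes were above 0, the lowest being SPRED2 (0.0089), CCND1 (0.041) and EPHA2 (0.081), which are close to 0. The share of all genes with a value above 0 was not computed, so the count of 15 has no background to compare with. Groups were separated, with FGL1-OE higher, for 4 of the 15, against 4.09% of all genes. EGR1 and IER3 passed the unadjusted threshold, 2 of 15 genes against 1.21% of all genes in the higher direction. The list was chosen with earlier results of these data known, so its counts and median are descriptions and no independent support. EGR1, an immediate early transcription factor, measured 12.7, 15.3 and 12.0 FPKM in NC libraries 1 to 3, against 31.6, 36.3 and 29.7 FPKM in FGL1-OE libraries 1 to 3. IER3, an immediate early gene, measured 33.1, 33.9 and 35.9 FPKM in NC, against 79.7, 68.4 and 70.2 FPKM in FGL1-OE. Every FGL1-OE library stood well above every NC library for both, with ratios of means of 2.44 and 2.12. Their log2 fold changes were 1.23 (standard error 0.16) and 1.06 (standard error 0.14), with unadjusted p-values of 8.5e-05 and 9.79e-05 and an adjusted p of 0.294 for each from limma. ETV5, a transcription factor, and DUSP4, a phosphatase of ERK, also had separated groups, ETV5 at 3.30 to 6.46 FPKM in NC and 6.52 to 7.24 FPKM in FGL1-OE, and DUSP4 at 7.94 to 8.70 FPKM and 10.1 to 10.6 FPKM. MYC, a transcription factor of cell growth, had a log2 fold change of 0.96 (standard error 0.69) that rested on FGL1-OE 3, at 21.5 FPKM, with 2.15 to 2.33 FPKM in the other 5 libraries. The feedback regulators SPRY4, DUSP6 and SPRED1 had overlapping groups. Without NC 2, 5 of the 15 genes had an unadjusted p under 0.05, against 21.8% of all genes in that fit, and the median was 0.28, against 0.036 over all genes.

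**Figure D5:**
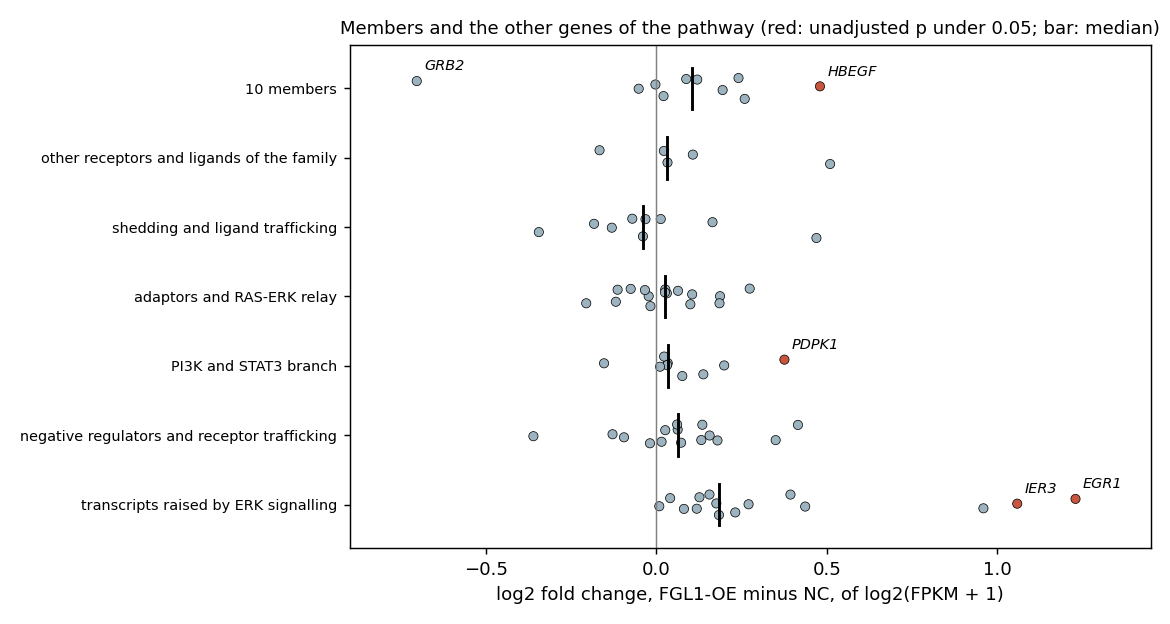
Log2 fold change (FGL1-OE minus NC, of log2(FPKM + 1)) of each member and of each tested gene of the 6 pathway lists, with the median of each list as a bar and genes at an unadjusted limma p under 0.05 in red. HBEGF is the red point among the members, EGR1 and IER3 lie above 1, and the medians of the other 5 lists lie between -0.039 and 0.063.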

How the data were processed

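The authors deposited FPKM values of 6 libraries in a gene table and a transcript table. Per the labels, mRNA was enriched with oligo(dT) beads for stranded libraries, and the submitters' processing notes name StringTie and GRCh37, with no version. The aligner and the annotation release are not given in the sources used here. The tables also hold the authors' own group comparison (fold changes and p-values), which was not used. Columns of values without a sample numbered 0. Samples were grouped by the genotype label.

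FPKM was transformed to log2(FPKM + 1) with a pseudocount of 1, features with a mean under 0.5 FPKM were left out, and limma 3.58.1 in R 4.3.3 was fitted over each whole table, 12017 genes and 30330 transcripts, without covariates, with Benjamini-Hochberg adjustment and a threshold of 0.05. Single values had exact two-sided permutation tests (scipy 1.17.1). The code was tested on simulated data. Shares, sums and exons used GENCODE 29 on GRCh38 for structure and sequence, and coordinates of genes are those of the tables on GRCh37. GC content was found for 97.7% of genes and 99.6% of transcripts. Promoter windows came from RefSeq.

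The members and the gene lists were chosen with earlier results of these data known. Named in the text were all members, FGL1, the most abundant transcript of a member and those with an unadjusted p under 0.05, from each pathway list the genes with an unadjusted p under 0.05 or else the largest change at 5 FPKM or more, and the 3 genes most like EGFR and AREG. ETV5, SPRY4, DUSP6, SPRED1, DUSP4, MYC and the transcripts of the skipped exons were chosen after their values were seen. Alternatives were no filter, a minimum mean of 1 FPKM, a pseudocount of 0.1, a common sum, quantile normalization, a replicate block, an ordinary linear model, sums of listed transcripts, leaving out each library, and, chosen after seeing the data, removal of the GC and length trend.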

Additional observations from a re-analysis of the deposited data

How the results depend on the processing

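The number of member genes at an unadjusted p under 0.05 was 1, and 0 with sums of listed transcripts. For member transcripts it was 1, and 0 with a mean of at least 1 FPKM, quantile normalization, an ordinary linear model or the replicate block. Correlations of deviations from the group means were 0.35, 0.28 and -0.061 for the same-numbered libraries 1, 2 and 3. Between differently numbered libraries they ranged from -0.37 to 0.14. NC 1 and NC 2 thus correlated best with the FGL1-OE library of the same number, and NC 3 with FGL1-OE 1 (0.11). Whether the replicate numbers pair the libraries is not settled by these values, and the main fit did not pair them. Pathway genes numbered 3, with 2 for a pseudocount of 0.1, a mean of at least 1 FPKM or the replicate block, 4 for an ordinary linear model and 6 after removal of the GC and length trend. ERBB2 turned to -0.66 with sums of listed transcripts, and ADAM17 to 0.0014 with a pseudocount of 0.1.

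Across fits that left out one library, counts at an unadjusted p under 0.05 were each highest without NC 2. Member genes ranged from 0 to 6 of 10, member transcripts from 0 to 4 of 31 and pathway genes from 2 to 17 of 69. Without NC 2, 21.8% of all genes passed as well, so these gene counts are to be read beside that share. The share of all transcripts in that fit, and the shares in the other fits that left out a library, were not computed. Medians ranged from -0.044 to 0.32 for members, -0.22 to -0.0011 for shedding genes, 0.0072 to 0.11 for the PI3K and STAT3 branch and 0.14 to 0.28 for ERK-raised transcripts. Log2 fold changes ranged from 0.093 to 0.50 for EGFR, -1.17 to -0.25 for GRB2, 0.32 to 0.62 for HBEGF, 0.19 to 0.33 for TGFA, -0.21 to 0.22 for ERBB2, -0.12 to 0.015 for ERBB3, -0.066 to 0.36 for AREG, -0.21 to 0.69 for EREG, -0.21 to 0.22 for ADAM17 and -0.022 to 0.30 for ERRFI1. For single transcripts they ranged from -0.17 to 0.72 (ENST00000275493 of EGFR), -0.064 to 0.39 (ENST00000395748 of AREG), -0.22 to 0.73 (ENST00000244869 of EREG) and -0.21 to 0.23 (ENST00000310823 of ADAM17). Differences in share ranged, in percentage points, from -17.1 to 16.1 for ENST00000275493 in EGFR, -8.42 to 10.8 for ENST00000580074 in ERBB2 and -18.4 to 2.44 for ENST00000267101 in ERBB3. The cause was not tested. HBEGF, TGFA, EGFR and GRB2 kept their direction in all alternatives run. With no read counts, what depth limits is unknown.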
